A study of Rattus norvegicus with 119 samples.

Results

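Genes that write, copy or read DNA methylation were followed in the hippocampus of rats given lead in their food. The group was defined by 10 gene symbols: Dnmt1, Dnmt3a, Dnmt3b, Tet1, Tet2, Tet3, Mbd1, Mbd2, Mbd3 and Uhrf1. A member was any array probe set whose only gene symbol was on that list, and 7 genes had such a probe set, 1 each, of 14506 genes with one in all. Tet1, Tet2 and Tet3 are not analysed here, so none of the listed methyl-cytosine oxidases, the erasers, contributes a value. RNA was measured in 119 rats on postnatal day 55, 1 array per animal, in 3 strains (Fischer, Long Evans and Sprague Dawley) and both sexes. The exposed groups ate lead acetate at 250 or 750 ppm. Perinatal groups had dams on the lead food from 10 days before mating up to weaning, whereas postnatal groups had it between birth and postnatal day 45. Control groups of each strain and sex ate control food (0 ppm). Each of the 30 groups held 4 animals, except for 3 Sprague Dawley male controls. The labels do not give litters, so p-values measure the spread between these animals only.

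DNA methyltransferases place methyl groups on cytosines, mostly where a cytosine precedes a guanine (CpG). Dnmt1 copies the pattern onto the new strand after replication, guided by Uhrf1, which binds hemimethylated DNA. Dnmt3a and Dnmt3b set new marks, and Dnmt3a is known as the main de novo enzyme of mature neurons. Tet enzymes oxidise the mark, which starts its removal by base excision repair. Mbd1 and Mbd2 bind methylated CpG through a shared domain. Mbd3 carries a relative of that domain that in mammals binds methylated DNA poorly, and it serves, like Mbd2, in the nucleosome remodelling and deacetylase (NuRD) complex.

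All values are log2 probe-set intensities, so a difference of 1 is a doubling. A probe set gives no level that can be set against another probe set, and levels are compared here only within a gene. A member was called when its limma p-value was under 0.05 after Benjamini-Hochberg adjustment across the 29214 probe sets of a contrast, and errors of differences are standard errors from limma. Array medians ranged from 7.355 to 7.566, and the mean of 9 choroid plexus markers from 7.15 to 11.4. In 8 arrays (3 Long Evans, 5 Sprague Dawley, 4 of them controls) X-linked genes went against the sex label (sex-discordant arrays), and results are given without them where that changed a call. Within each group the animals were also parted by the number in their labels: the 2 lowest numbers form the lower set and the others the upper set. What these numbers stand for is not given in the sources used here. Upper and lower are ranks within a group, and nothing in the labels ties the upper set of a strain to that of another. Each group also carried its own run of numbers. Lead, dose, period and sex differences therefore cannot be told apart from these runs. In bulk tissue, fewer cells of a type and less RNA per cell cannot be told apart.

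The genes lie on 6 chromosomes of the rat assembly GRCr8. Dnmt1 spans chr8:27716797-27763405, Uhrf1 chr9:1220162-1241792, Dnmt3a chr6:32507316-32621678 and Dnmt3b chr3:162590777-162629313. Mbd1 (chr18:70145093-70159744) and Mbd2 (chr18:66449196-66516112) share a chromosome, and Mbd3 lies at chr7:9961053-9970845. Over all 30 groups the means of a gene spanned between 0.18 (Dnmt1) and 0.34 (Dnmt3b) on the log2 scale. Of the 29 pairs of neighbours in each gene's order of group means, 28 or 29 lay within 1 SD of each other. Sorted means of 30 groups over spans this short lie close to their neighbours in any case. This count therefore does not show whether groups differ. Dnmt1 was highest in Long Evans females after perinatal 750 ppm (9.21 ± 0.08, SD, n = 4) and lowest in Sprague Dawley males after postnatal 250 ppm (9.03 ± 0.07). Uhrf1 had both its highest mean (7.33 ± 0.09, males, perinatal 750 ppm) and its lowest (7.05 ± 0.10, females, postnatal 250 ppm) in exposed Long Evans. Dnmt3a ran between 8.80 ± 0.11 in Long Evans males after perinatal 750 ppm and 8.61 ± 0.05 in Sprague Dawley males after postnatal 750 ppm. Dnmt3b peaked in the same Long Evans males (6.22 ± 0.19), and its lowest mean was in Fischer males after perinatal 750 ppm (5.88 ± 0.09). All 10 of the highest Mbd2 groups and 9 of the 10 highest Mbd3 groups were Long Evans, and 8 of the 10 highest Mbd1 groups were Sprague Dawley.

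**Figure D1:**
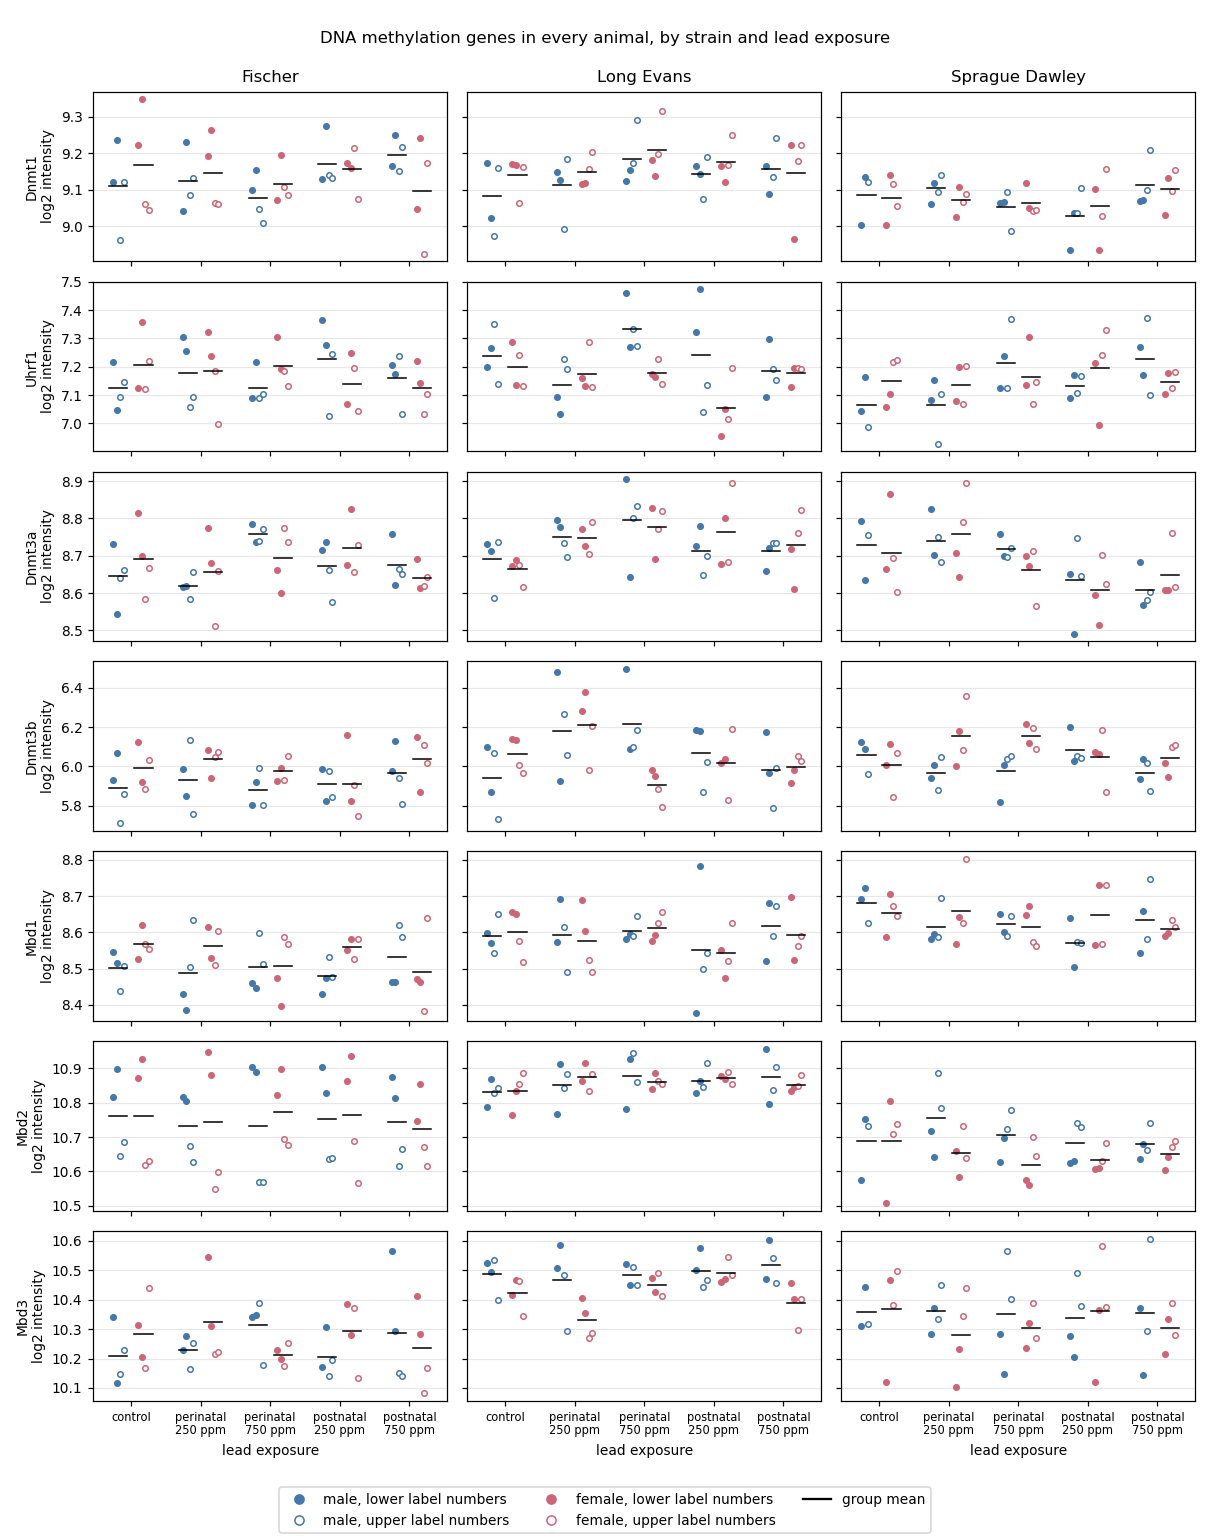
Log2 intensity (vertical axes) of the 7 genes in each of the 119 animals, by strain (columns) and lead exposure (horizontal axis). Points are animals, blue for males and red for females, filled for the lower and open for the upper label-number set, and black bars are group means. Exposed and control points lie over the same range in most panels, and the Fischer Mbd2 points part by label-number set in all 10 groups.

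Lead changed none of the 7 genes past the threshold. Averaged over the 8 exposed groups of a strain, each against the controls of its sex, limma called 0 members in Fischer, 0 in Long Evans and 0 in Sprague Dawley. Over all probe sets that mean effect called 0%, 0.212% and 0.0171% in these strains. At an unadjusted p under 0.05 the members' counts were 0, 1 and 0. In the 24 separate comparisons of an exposed group with its controls, 0 of 168 values passed, where 0.0175% of all values did. The smallest adjusted p was 0.553, and 7 of 168 values (4.17%) had an unadjusted p under 0.05, against 4.05% over all probe sets. The estimates leave room for small shifts: the 95% confidence intervals of the mean effect reached from -0.131 to 0.114 in Fischer, from -0.113 to 0.191 in Long Evans and from -0.148 to 0.136 in Sprague Dawley.

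The maintenance pair, Dnmt1 and Uhrf1, gave no call for lead in any strain. Exposed Fischer rats had Dnmt1 at 8.93, 9.14 and 9.27 (lowest, median and highest of 32), against 8.96, 9.12 and 9.35 in 8 controls. Exposed Long Evans rats had 8.96, 9.17 and 9.32, against 8.97, 9.16 and 9.17 in controls, and exposed Sprague Dawley rats 8.94, 9.07 and 9.21, against 9.003, 9.12 and 9.14 in 7 controls. The ranges overlapped in each strain. The mean effect on Dnmt1 was -0.0045 ± 0.039 in Fischer, 0.048 ± 0.032 in Long Evans and -0.0081 ± 0.028 in Sprague Dawley (limma adjusted p = 1, 0.825 and 0.999). Uhrf1 was at 6.996, 7.19 and 7.36 in exposed Fischer rats, against 7.05, 7.14 and 7.36 in controls. In exposed Long Evans rats it was at 6.95, 7.18 and 7.47, against 7.13, 7.22 and 7.35 in controls, and exposed Sprague Dawley rats had 6.93, 7.15 and 7.37, against 6.99, 7.10 and 7.22. Its mean effects were 0.0025 ± 0.042, -0.034 ± 0.039 and 0.052 ± 0.041, none called, and the groups overlapped in each strain.

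The de novo enzymes gave no call for lead in any strain. Exposed Long Evans rats had Dnmt3a at 8.61, 8.73 and 8.91 (lowest, median and highest of 32), against 8.59, 8.68 and 8.74 in their 8 controls. The ranges overlapped, with the upper end of the exposed animals above the highest control. The mean effect was 0.071 ± 0.030 (limma adjusted p = 0.562), and the 8 differences, which share the controls of each sex, lay between 0.020 and 0.114. Without the sex-discordant arrays the effect was 0.083 (adjusted p = 0.615). Of 7 oligodendrocyte markers 4 rose with the mean lead effect in Long Evans, and their part in the Dnmt3a value was not tested. In Fischer the Dnmt3a effect was 0.012 ± 0.032, with exposed rats at 8.51, 8.66 and 8.83, against 8.54, 8.66 and 8.81 in controls. In Sprague Dawley it was -0.045 ± 0.036, with exposed rats at 8.49, 8.68 and 8.89, against 8.60, 8.69 and 8.87 in controls. The strain difference of the Dnmt3a effect, Sprague Dawley minus Long Evans, was -0.116 ± 0.044 and not called (limma adjusted p = 1).

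Dnmt3b gave both the highest and the lowest of the 168 values, in the 2 sexes of 1 treatment. Its animals also spread most within groups, with a median group SD of 0.113, the largest among the members. Long Evans males after perinatal 750 ppm had 6.49, 6.09, 6.10 and 6.19, against 6.10, 5.87, 6.07 and 5.73 in male controls. The 2 lowest exposed males lay just under the highest control, and the other 2 above it, and the difference was 0.275 ± 0.107 (limma adjusted p = 0.553). Females of that treatment had 5.98, 5.95, 5.88 and 5.79, against 6.14, 6.14, 6.01 and 5.97 in female controls. Here only the highest exposed female reached into the range of the controls, and the difference was -0.159 (adjusted p = 0.943). Female controls 1 and 3 are sex-discordant arrays. Without such arrays the smallest limma adjusted p of any member in this comparison of females was 0.996. These controls also enter the sex difference of the mean effect in Long Evans, which was -0.200 for Dnmt3b, with an adjusted p of 1. Without the sex-discordant arrays, among them male control 4, the difference in males was 0.206 (adjusted p = 0.760). A filter at the 40th percentile of mean level left Dnmt3b out. In Fischer its mean effect was 0.014 ± 0.049, with exposed rats between 5.75 and 6.16 and controls between 5.71 and 6.13. In Sprague Dawley the mean effect was 0.016 ± 0.043, with exposed rats between 5.82 and 6.36 and controls between 5.85 and 6.13.

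The readers gave no call for lead either. The mean lead effect on Mbd1 was -0.018 ± 0.032 in Fischer, -0.0096 ± 0.034 in Long Evans and -0.045 ± 0.030 in Sprague Dawley. For Mbd2 it was -0.016 ± 0.056, 0.032 ± 0.023 and -0.016 ± 0.033 in the same strains, and for Mbd3 0.017 ± 0.047, -0.0026 ± 0.029 and -0.031 ± 0.058. None was called (adjusted p from 0.857 to 1), and the groups overlapped in each strain. With the label-number set as a block, the standard error of the Fischer Mbd2 effect was 0.024, and 0 members were called in any strain, against 0%, 0.195% and 0.024% of all probe sets in Fischer, Long Evans and Sprague Dawley, with 0, 1 and 0 members at an unadjusted p under 0.05 by limma.

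**Figure D2:**
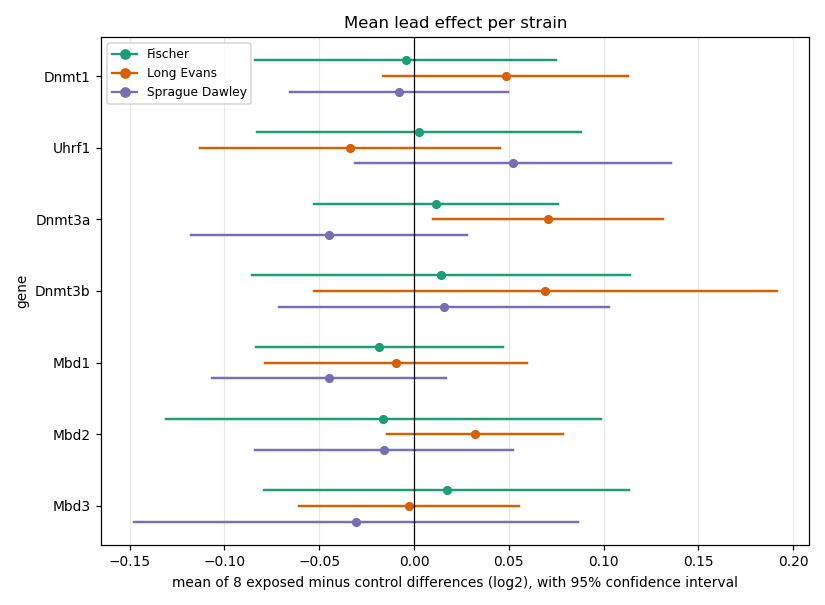
Mean of the 8 exposed minus control differences of each strain (log2, horizontal axis) for the 7 genes (vertical axis). Points are estimates and lines 95% confidence intervals, coloured by strain. Long Evans Dnmt3a, at 0.071, is the only member whose unadjusted interval leaves out 0.

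Dose, period and sex gave no call either. Between 750 and 250 ppm the members differed by -0.096 to 0.065 over the 3 strains, and between perinatal and postnatal exposure by -0.041 to 0.114. Of all probe sets, the dose contrast called 0.0719% in Fischer, 0.0548% in Long Evans and 0.00342% in Sprague Dawley, and the period contrast called 0.00342%, 0.065% and 0.0411%. Members with an unadjusted p under 0.05 numbered 0 for dose in every strain, and for period 0 in Fischer, 1 in Long Evans and 1 in Sprague Dawley. Dnmt3a averaged 8.72 in perinatal and 8.62 in postnatal Sprague Dawley rats, a difference of 0.095 ± 0.030 (limma adjusted p = 0.791). The sexes, pooled over exposed and control animals, differed in 0 members, where 0.0822% of all probe sets were called in Fischer, 0.0856% in Long Evans and 0.0171% in Sprague Dawley. At an unadjusted p under 0.05 the counts were 0, 2 and 2. Mbd3 averaged 10.42 ± 0.07 in Long Evans females and 10.49 ± 0.07 in males (SD, n = 20 each), a difference of -0.074 ± 0.023 (limma adjusted p = 0.138). It was called, at -0.086 (adjusted p = 0.0418), only without the male perinatal 250 ppm replicate 4. In these Long Evans rats Slc4a1, from a red-cell list of 5 probe sets, also differed by sex, at 6.56 in females and 6.81 in males. The rest of that list is not given here, so this gene does not show a difference in red-cell content. Its part in the Mbd3 value was not tested. The effect of lead differed between sexes in 0 members (0%, 0% and 0.00342% of all probe sets in Fischer, Long Evans and Sprague Dawley), all at an unadjusted p above 0.05. It differed between strains in 0 members, against 0.13% of probe sets for Fischer minus Long Evans, 0.0787% for Sprague Dawley minus Long Evans and 0.0103% for Sprague Dawley minus Fischer. For that test 1 member, Dnmt3a above, had an unadjusted p under 0.05.

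Among control animals each pair of strains differed in 1 of the 7 members: Mbd3 was lower in Fischer than in Long Evans, Mbd2 lower in Sprague Dawley than in Long Evans, and Mbd1 higher in Sprague Dawley than in Fischer. Of all probe sets 25.1%, 24.5% and 10.5% were called in these 3 comparisons, 11.7%, 12% and 4.41% in the member's own direction, and a count of 1 in 7 is not read as a result about the members. The animals of each strain also carried their own runs of label numbers. Strain and these runs cannot be told apart in any strain comparison here. Dnmt1, Uhrf1, Dnmt3a and Dnmt3b were not called in any pair. Their differences ran from -0.111 (Uhrf1, Sprague Dawley minus Long Evans, adjusted p = 0.108) to 0.092 (Dnmt3b, Sprague Dawley minus Fischer, adjusted p = 0.433).

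Mbd3 was measured at 10.34, 10.12, 10.15 and 10.23 in Fischer male controls and at 10.32, 10.21, 10.17 and 10.44 in female controls. Long Evans male controls had 10.52, 10.50, 10.54 and 10.40, and female controls 10.42, 10.47, 10.46 and 10.34. Among males no Fischer control reached a Long Evans control, and among females 1 Fischer control did. The share of all probe sets parted like this is not given here, so the parting is not read as particular to Mbd3. The difference was -0.210 ± 0.056 (limma adjusted p = 0.00283). It was -0.232 in the lower label-number set and -0.189 in the upper set. Sprague Dawley controls lay between the other strains, at 10.12, 10.38 and 10.50 (lowest, median and highest of 7), and did not differ from Long Evans (-0.094 ± 0.058, adjusted p = 0.248) or from Fischer (0.117 ± 0.058, adjusted p = 0.208) past the threshold.

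Mbd2 was measured at 10.58, 10.75 and 10.73 in Sprague Dawley male controls and at 10.51, 10.80, 10.71 and 10.74 in female controls. Long Evans male controls had 10.79, 10.87, 10.83 and 10.84, and female controls 10.77, 10.83, 10.86 and 10.89. 1 Sprague Dawley animal, labelled female, at 10.80, reached into the Long Evans range, and it is a sex-discordant array. The difference was -0.145 ± 0.051 (limma adjusted p = 0.0293), and without the sex-discordant arrays -0.175 (adjusted p = 0.0459). The call ended without Sprague Dawley male control 1 (-0.117, adjusted p = 0.127), Sprague Dawley female control 1 (-0.115, adjusted p = 0.102) or Long Evans female control 4 (-0.137, adjusted p = 0.0529). Fischer controls had Mbd2 between 10.62 and 10.93, parted by label-number set, and their difference from Long Evans depended on it. Over both sets it was -0.072 ± 0.049 (adjusted p = 0.302), and with the set as a block it was called at the same size (adjusted p = 0.0388; 32.1% of all probe sets called). In the lower set Fischer controls averaged 10.88 and Long Evans controls 10.81. In the upper set they averaged 10.64 and 10.85, a difference of -0.209 (adjusted p = 3.2e-05). Sprague Dawley minus Fischer Mbd2 was not called over both sets (-0.073, adjusted p = 0.419) and was called in the lower set alone (-0.218, adjusted p = 0.00372). The sets of different strains are matched by rank only.

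Mbd1 was measured at 8.69, 8.72 and 8.63 in Sprague Dawley male controls and at 8.59, 8.71, 8.67 and 8.65 in female controls. Fischer male controls had 8.55, 8.52, 8.44 and 8.51, and female controls 8.53, 8.62, 8.57 and 8.55. Males did not overlap, and among females 1 Sprague Dawley animal lay below the highest Fischer value. The share of all probe sets parted like this is not given here, so the parting is not read as particular to Mbd1. The difference was 0.133 ± 0.040 (limma adjusted p = 0.0179). It was 0.125 in the lower set (adjusted p = 0.155) and 0.126 in the upper set (adjusted p = 0.151), where fewer animals entered. It missed the threshold when the 8 sex-discordant arrays were left out (0.124, adjusted p = 0.0534) and without Sprague Dawley male control 2 (0.122, adjusted p = 0.0584). Astrocyte markers also differed by strain: the mean of 7 markers was 11.43 to 11.68 in Fischer and 11.49 to 11.62 in Sprague Dawley controls, against 11.34 to 11.46 in Long Evans controls. Of these 7, 5 were higher in Fischer and 3 in Sprague Dawley than in Long Evans, and none was lower. Their part in the Mbd2 and Mbd3 values was not tested.

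**Figure D3:**
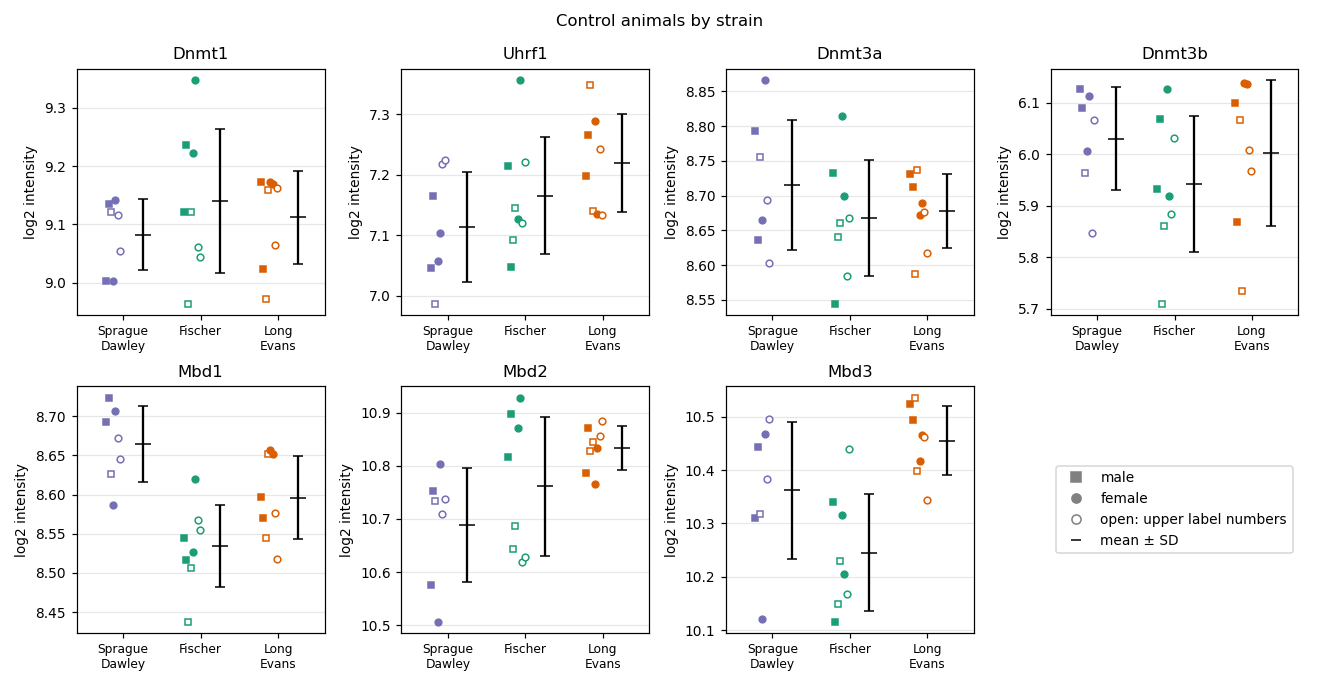
Log2 intensity (vertical axes) of the 7 genes in the control animals of each strain (horizontal axis). Squares are males, circles females, open symbols animals of the upper label-number set, and black bars the mean ± SD (7 Sprague Dawley, 8 Fischer and 8 Long Evans). Fischer Mbd3 averages 10.25 and Long Evans Mbd3 10.46, and Fischer Mbd2 falls into 2 clusters that follow the set.

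With exposed animals included, each pair of strains differed in 5 of 7 members, against 61.2% of all probe sets for Fischer minus Long Evans, 62.2% for Sprague Dawley minus Long Evans and 40.7% for Sprague Dawley minus Fischer. Mbd3 was lower in Fischer than in Long Evans by -0.195 ± 0.025 (log2 difference, limma adjusted p = 1.0e-10), and Mbd2 was lower in Sprague Dawley than in Long Evans by -0.183 ± 0.022 (adjusted p = 1.3e-11). Mbd1 was 0.111 ± 0.017 higher in Sprague Dawley than in Fischer (adjusted p = 6.5e-08). Sprague Dawley Mbd3, not called among controls, here differed from Long Evans (-0.116, limma adjusted p = 4.6e-05) and from Fischer (0.078, adjusted p = 0.00875). Mbd1 (-0.069) and Mbd2 (-0.111) were lower in Fischer than in Long Evans. In Sprague Dawley Mbd2 was lower than in Fischer (-0.073) and Mbd1 higher than in Long Evans (0.043). Among the methyltransferases, Dnmt1 was lower in Sprague Dawley than in Long Evans (-0.075 ± 0.018) and than in Fischer (-0.060 ± 0.018). Dnmt3a was lower in Fischer (-0.057 ± 0.017) and in Sprague Dawley (-0.053 ± 0.017) than in Long Evans, although among controls alone the second difference was 0.040 ± 0.040. Dnmt3b was lower in Fischer than in Long Evans (-0.105 ± 0.029) and higher in Sprague Dawley than in Fischer (0.094 ± 0.029). Uhrf1 was not called in any pair.

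The promoters of Mbd2 and Mbd3 are shown because these genes were called against Long Evans among controls and also differed by label-number set. Each is 300 bases on the plus strand of GRCr8, from RefSeq, from 250 before the transcript start, and capitals mark every CpG (the letters CG, which read the same on both strands). They come from chr18:66449108-66449407 and chr7:9963390-9963689.
Mbd2: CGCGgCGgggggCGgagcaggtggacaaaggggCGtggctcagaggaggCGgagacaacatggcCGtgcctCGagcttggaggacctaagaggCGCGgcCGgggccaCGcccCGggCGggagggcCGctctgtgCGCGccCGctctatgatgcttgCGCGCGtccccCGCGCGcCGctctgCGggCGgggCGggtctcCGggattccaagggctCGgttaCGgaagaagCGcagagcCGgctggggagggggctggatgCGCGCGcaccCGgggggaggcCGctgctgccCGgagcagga
Mbd3: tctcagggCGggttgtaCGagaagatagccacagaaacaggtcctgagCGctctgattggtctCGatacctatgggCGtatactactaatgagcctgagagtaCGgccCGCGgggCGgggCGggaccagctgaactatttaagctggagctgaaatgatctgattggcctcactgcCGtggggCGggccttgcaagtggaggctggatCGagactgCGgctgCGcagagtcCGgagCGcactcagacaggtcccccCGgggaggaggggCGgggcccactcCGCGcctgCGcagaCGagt
The Mbd2 window holds 39 CpGs and the Mbd3 window 23. Of 33469 such windows in RefSeq, 3.76% hold at least as many as Mbd2 and 19.5% at least as many as Mbd3, the median is 7, and 94.5% hold at least 1. The other members with a listed window held 17 (Dnmt1), 21 (Dnmt3a), 25 (Mbd1) and, at 3 transcript starts of Uhrf1, 8, 13 and 35. These counts describe the letters only; methylation was not measured.

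Label-number sets within Fischer and within Sprague Dawley differed in many probe sets, members among them. In Fischer, 5 of 7 members differed between the upper and the lower set, 1 higher and 4 lower, where 60.9% of all probe sets did (18.6% higher, 42.3% lower) and the median probe set shifted by -0.067. In Sprague Dawley 2 of 7 differed, both higher in the upper set, against 17.3% of probe sets (9.07% higher), and in Long Evans 0 of 7, against 0.0993%. In Long Evans 2 members had an unadjusted p under 0.05. With 7 members, counts this near the shares over all probe sets are not read as a result about the members.

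Mbd2 in Fischer was at 10.55, 10.63 and 10.69 in the upper set (lowest, median and highest of 20), against 10.75, 10.87 and 10.95 in the lower set. The sets did not overlap, and the upper set was lower in 10 of 10 groups, by -0.157 to -0.338. The shares of all probe sets without overlap, or with 1 sign in 10 of 10 groups, are not given here. The difference was -0.233 ± 0.019 (limma adjusted p = 2.7e-12). In Sprague Dawley the upper set had 10.63, 10.72 and 10.89, against 10.51, 10.63 and 10.80 in the lower set, so the sets overlapped, while the upper set was higher in 10 of 10 groups. That difference was 0.081 ± 0.021 (adjusted p = 0.00673). In Long Evans the upper set had 10.83, 10.86 and 10.945, against 10.765, 10.85 and 10.96 in the lower set, with no call (0.017 ± 0.018, adjusted p = 0.822). The set effects differed between strains by 0.314 ± 0.025 for Sprague Dawley minus Fischer (adjusted p = 1.9e-19) and by -0.249 ± 0.025 for Fischer minus Long Evans (adjusted p = 1.6e-14). In these tests 55.1% and 43.2% of all probe sets were called. The sets are matched between strains by rank only, so these differences depend on how the sets were oriented.

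In Fischer and Sprague Dawley Mbd3 differed in the same directions as Mbd2, with overlapping ranges. In Fischer the upper set had 10.08, 10.18 and 10.44, against 10.12, 10.30 and 10.56 in the lower set (-0.097 ± 0.033, limma adjusted p = 0.0132). In Sprague Dawley the upper set had 10.27, 10.39 and 10.61, against 10.10, 10.28 and 10.47 (0.144 ± 0.036, adjusted p = 0.00528). Long Evans Mbd3 was not called (-0.050 ± 0.021, adjusted p = 0.44). The effects differed by 0.241 ± 0.044 for Sprague Dawley minus Fischer (adjusted p = 1.7e-06) and by 0.194 ± 0.044 for Sprague Dawley minus Long Evans (adjusted p = 0.00117; 9.74% of probe sets called). The maintenance pair was lower in the Fischer upper set in 10 of 10 groups each, again with no share over all probe sets to set beside it. Dnmt1 was at 8.93, 9.09 and 9.22 in the upper set, against 9.04, 9.18 and 9.35 in the lower set (-0.090 ± 0.026, adjusted p = 0.00326), and its difference was -0.060 (adjusted p = 0.0461) after a further quantile normalization. Uhrf1 was at 6.996, 7.10 and 7.25, against 7.05, 7.22 and 7.36 (-0.101 ± 0.028, adjusted p = 0.00218), but after that normalization its difference was -0.010 (adjusted p = 0.799). Mbd1 was higher in the Fischer upper set, at 8.38, 8.56 and 8.64, against 8.39, 8.47 and 8.62 (0.054 ± 0.023, adjusted p = 0.0383), a difference of 0.111 (adjusted p = 2.0e-05) after the further normalization. The call ended in 15 of the 40 fits that each left out 1 animal. Dnmt3a (-0.035 ± 0.023) and Dnmt3b (-0.042 ± 0.038) were not called.

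Cell-type markers moved with the Fischer sets too, where 18.6% of all probe sets were called higher and 42.3% lower. The astrocyte and meningeal lists are given first. The mean of 7 astrocyte markers was 11.59 to 11.70 in the upper set and 11.40 to 11.485 in the lower set, without overlap, and all 7 were called higher. Meningeal markers averaged 7.97 to 8.79 in the upper set and 8.21 to 9.20 in the lower set, with 8 of 9 called lower. In Sprague Dawley 5 of the 7 astrocyte markers were called lower in the upper set (list means 11.47 to 11.63, against 11.485 to 11.65), and 1 of 9 meningeal markers higher. Of all probe sets there, 8.23% were called lower and 9.07% higher. Other lists held calls in both directions in Fischer. Neurod2 was lower in the upper set (-0.341), and Neurod6 (0.230) and Calb1 (0.241) were higher. Dcx was lower (-0.254) and Hes5 higher (0.316). The part of the markers in the values of the members was not tested. Every group held animals of both sets, and the set and whatever handling or animals it stands for cannot be told apart.

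**Figure D4:**
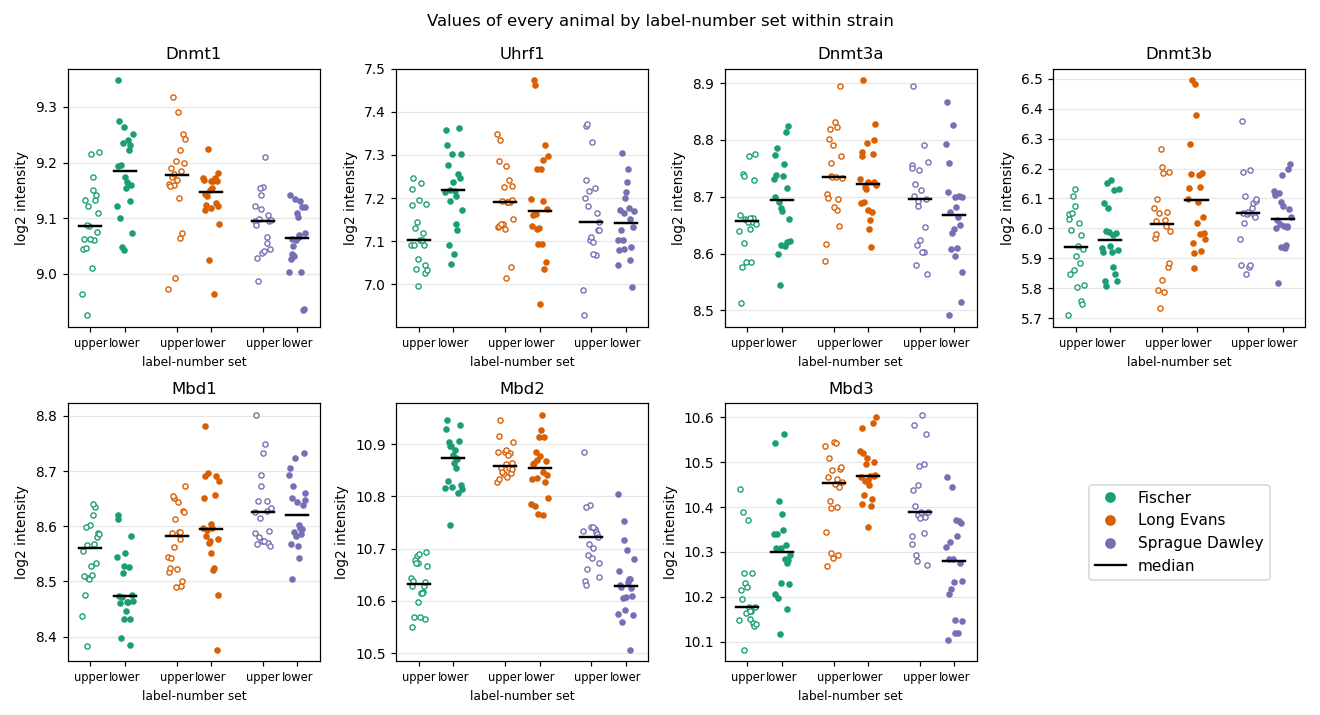
Log2 intensity (vertical axes) of the 7 genes by label-number set (horizontal axes, upper then lower) in Fischer (green), Long Evans (orange) and Sprague Dawley (purple). Points are animals, open for the upper set, and black bars medians. Fischer Mbd2 has medians of 10.63 in the upper and 10.87 in the lower set with no overlap, and in Sprague Dawley the medians are 10.72 and 10.63.

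Genes that work with the members were described through 5 lists: other methyl-CpG readers, base excision and active demethylation, the S-adenosylmethionine cycle that supplies the methyl group, NuRD partners, and partners of the methyltransferases and Tet enzymes. Of 73 genes listed, 60 were measured, by 66 probe sets. Limma called 0 of the 66 for the mean lead effect in each strain, and 0 for dose, period and sex. At an unadjusted p under 0.05 the counts in Fischer, Long Evans and Sprague Dawley were 0, 5 and 1 for the mean lead effect, 9, 4 and 2 for dose, 0, 7 and 4 for period, and 1, 11 and 7 for sex. The median lead effect over the lists was -0.015 in Fischer, 0.0080 in Long Evans and -0.0030 in Sprague Dawley, beside -0.0043, 0.0010 and -0.0037 over all probe sets.

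Strain differences of controls were also counted in these lists. Of the 66, 20 were called for Fischer minus Long Evans controls (12 higher, 8 lower), 18 for Sprague Dawley minus Long Evans (9 higher, 9 lower) and 11 for Sprague Dawley minus Fischer (3 higher, 8 lower). These are 30.3%, 27.3% and 16.7% of the lists, beside the 25.1%, 24.5% and 10.5% over all probe sets given above. The shares were not tested against each other and are not read as a result about the lists. The glycosylase Ogg1, which removes oxidised guanine, averaged 8.30 in Fischer and 8.35 in Sprague Dawley controls, against 8.64 in Long Evans controls (differences -0.340 ± 0.089 and -0.295 ± 0.093, limma adjusted p = 0.0024 and 0.0132). The NuRD subunit Gatad2b averaged 11.49 in Fischer and 11.43 in Sprague Dawley controls, against 11.67 in Long Evans controls (-0.174 ± 0.051 and -0.240 ± 0.053). The deacetylase Hdac1 of the same complex went the other way in Fischer, at 8.87, against 8.45 in Long Evans on 1 of its probe sets (0.419 ± 0.106). Ahcy, which clears the product that inhibits methyltransferases, averaged 9.10 in Fischer and 9.09 in Sprague Dawley controls, against 9.26 in Long Evans controls. Mthfd1, a folate enzyme, was higher in Sprague Dawley, at 9.19 on 1 of its probe sets, against 8.89 in both other strains.

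The label-number set called 46 of the 66 in Fischer (69.7%; 20 higher, 26 lower), 20 in Sprague Dawley (30.3%; 11 higher, 9 lower) and 0 in Long Evans, where limma gave 4 at an unadjusted p under 0.05. Over all probe sets 60.9%, 17.3% and 0.0993% were called in these strains. Mat2a, which makes S-adenosylmethionine, averaged 11.945 in the Fischer upper set and 11.44 in the lower set, on 1 of its probe sets (0.509 ± 0.032, limma adjusted p = 5.5e-15). In Sprague Dawley the same gene was lower in the upper set, at 11.57, against 11.85 (-0.282 ± 0.050). The repair polymerase Polb (0.352 ± 0.028) and Hdac1 (0.497 ± 0.032) were also higher in the Fischer upper set, and both were lower in the Sprague Dawley upper set (-0.133 ± 0.039 and -0.191 ± 0.038). Ogg1 did the reverse, at -0.449 ± 0.031 in Fischer and 0.102 ± 0.029 in Sprague Dawley. The unmethylated-CpG binding protein Cxxc5 was lower in the Fischer upper set, at 10.455, against 10.91 on 1 of its probe sets (-0.459 ± 0.022). Of the reader list, Zbtb33 was lower in the Fischer upper set (-0.081 ± 0.027) and higher in the Sprague Dawley upper set (0.075 ± 0.018). Zbtb38 of that list went the other way in Fischer, higher in the upper set (0.098 ± 0.026). Strain differences of the set effect were not tested for these companion genes.

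Proliferation markers, which often run with Dnmt1 and Uhrf1 in dividing tissue, were measured by 14 probe sets. Limma called 0 of them for the mean lead effect in any strain (0, 2 and 3 at an unadjusted p under 0.05 in Fischer, Long Evans and Sprague Dawley). In the Fischer upper set 5 were lower and 1 higher, where 42.3% of all probe sets were called lower and 18.6% higher. Among the 5 was the replication licensing gene Mcm2 at 7.72, against 7.86 in the lower set.

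Correlations among members were weak once group and set means were removed. Of 21 pairs over 119 arrays, Pearson's r ran from -0.180 to 0.307, and 4 pairs had an adjusted permutation p under 0.05 over the 21. Dnmt3a and Mbd1 had r = 0.307 (rho = 0.299, permutation p = 8.7e-04 and 0.00102, adjusted p = 0.00672 and 0.00535), with r positive in 6 of 6 strain-by-set subsets and 0.296 without the 2 farthest arrays. Mbd1 and Mbd3 had r = 0.293 (rho = 0.312, permutation p = 0.00118 and 4.7e-04, adjusted p = 0.00672 and 0.00462), also positive in 6 of 6 subsets, and 0.295 without the 2 farthest. Dnmt1 with Mbd1 (r = 0.294, rho = 0.314, permutation p = 0.00103 and 4.4e-04, adjusted p = 0.00672 and 0.00462) was positive in 5 of 6 and gave 0.292 without the 2 farthest. Dnmt3a with Mbd3 (r = 0.293, rho = 0.308, permutation p = 0.00128 and 6.6e-04, adjusted p = 0.00672 and 0.00462) was positive in 5 of 6 and gave 0.249. Dnmt1 and Uhrf1, which act together, had r = -0.035 (rho = -0.073, permutation p = 0.701 and 0.428, adjusted p = 0.775 and 0.564). Mbd2 and Mbd3, both called by set in Fischer and Sprague Dawley, had r = 0.044 within sets (rho = -0.073, permutation p = 0.634 and 0.43, adjusted p = 0.775 and 0.564).

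The genes most like each member over the same 119 arrays, among 15309 single-symbol probe sets, were chosen by Pearson's r of the same residuals. They were Phb2 (r = 0.629), Rpp25 (0.597) and Ncoa2 (0.580) for Dnmt1, and Chrd (0.455), Invs (0.430) and Rhov (0.388) for Uhrf1. For Dnmt3a they were Hip1r (0.520), Ckb (0.513) and Atp2b2 (0.507), and for Dnmt3b B3gnt6 (0.608), Mucl3 (0.599) and Spatc1 (0.594). For Mbd1 they were Coq8a (0.521), mrpl24 (0.511) and Yju2 (0.496), for Mbd2 Ybx1 (0.501), Tmco1 (0.494) and Fam174a (0.494), and for Mbd3 Adprs (0.609), Pheta2 (0.608) and Metrn (0.600). These values describe likeness of residuals and share the arrays.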

How the data were processed

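Total RNA of 119 rat hippocampi was measured on 1-colour arrays. The deposited values are log2 intensities per probe set; the authors made them with RMA and Partek, per the submitters' processing notes, and their versions, sequence and whether batches were corrected are not given in the sources used here. Genes were taken from the platform's annotation, where 15310 probe sets have 1 symbol, and positions and promoters from RefSeq (GRCr8). Group means were fitted with limma 3.58.1 (lmFit, eBayes) in R 4.3.3 with data.table (version 1.17.8), within strain for lead, sex, dose, period and label-number set, and in 1 fit of all groups for strain. Tests were two-sided, adjusted by the Benjamini-Hochberg method over 29214 probe sets. Contrasts were tested on simulated data. Correlations used 100000 permutations. Figures were drawn with matplotlib 3.10.9 in Python 3.11.15. All members are named. Companion genes are named from those called, up to 4 of smallest p per list and contrast, and so are 3 likest genes per member. Members and lists were chosen with earlier results of these data known. The alternatives were the label-number set as a block, no arrays against their sex label, quantile normalization, a level filter at the 40th percentile, array weights, a choroid plexus covariate, single sets, all 10 groups of a strain and leaving out each animal. The number of animals per group limits the precision.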

Additional observations from a re-analysis of the deposited data

Results flagged for a closer look

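In 9 of 203 groups of 4 (by gene), 1 animal stood apart from the other 3 by Dixon's test, where chance gives about 10.2 (1 in 20). For Dnmt1 these were Fischer male postnatal 250 ppm replicate 2 (9.275, the others 9.131 to 9.142), Sprague Dawley female perinatal 750 ppm replicate 1 (9.12, the others 9.042 to 9.051) and Long Evans female control replicate 3 (9.065, the others 9.162 to 9.172), an array against its sex label. For Uhrf1 they were Fischer male perinatal 750 ppm replicate 2 (7.217, the others 7.091 to 7.102) and Long Evans female postnatal 750 ppm replicate 1 (7.129, the others 7.192 to 7.194). For Dnmt3a they were Sprague Dawley female postnatal 750 ppm replicate 3 (8.762, the others 8.608 to 8.615) and Long Evans male control replicate 3 (8.588, the others 8.713 to 8.736). Sprague Dawley male postnatal 250 ppm replicate 1 stood apart for Dnmt3b (6.2, the others 6.029 to 6.054), and Sprague Dawley male perinatal 250 ppm replicate 4 for Mbd1 (8.694, the others 8.582 to 8.595).

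The effect of the label-number set differed between strains for 4 genes, in limma tests of the difference itself. For Sprague Dawley minus Fischer it was 0.314 for Mbd2 (adjusted p = 1.9e-19), 0.241 for Mbd3 (1.7e-06), 0.122 for Dnmt1 (0.00106) and 0.115 for Uhrf1 (0.0177), whose Fischer set effect was -0.010 (adjusted p = 0.799) after further quantile normalization. For Fischer minus Long Evans it was -0.249 for Mbd2 (1.6e-14) and -0.123 for Dnmt1 (0.0012), and for Sprague Dawley minus Long Evans 0.194 for Mbd3 (0.00117). Of all probe sets 55.1%, 43.2% and 9.74% were called in these 3 tests. Upper and lower are ranks within groups and need not mean the same in each strain. These differences therefore depend on how the sets were oriented.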

How the results depend on the processing

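The counts of members called for lead, dose, period and the sex and strain differences of the lead effect were 0 in every fit run. The Fischer set count was 4 to 5 over the fits that left out 1 animal, the Long Evans sex count 0 to 1, and the control counts 1 to 1 for Fischer minus Long Evans and 0 to 1 for both Sprague Dawley comparisons. The Fischer minus Long Evans count, 1 as reported, was 2 with the label-number set as a block (also with the second Sprague Dawley male control moved to the upper set, a choice made after seeing the data), 2 in the upper set alone and 5 over all 10 groups. Sprague Dawley minus Long Evans, 1 as reported, was 2 after further quantile normalization and 5 over all 10 groups. Sprague Dawley minus Fischer, 1 as reported, was 0 without the 8 sex-discordant arrays, 0 in the upper set alone, 5 over all 10 groups and 2 with the set as a block and the second Sprague Dawley male control moved. Dnmt3a reversed for Sprague Dawley minus Long Evans, at -0.053 (limma adjusted p = 0.00603) over all 10 groups, which include exposed animals. By its weights, that contrast is the control difference plus a share of the strain difference of the lead effect. The latter was -0.116 for Dnmt3a and was not called, and what lies behind it was not tested. Fischer minus Long Evans Mbd3 was called in all 10 other settings (-0.232 to -0.189) and without any 1 animal. Of 1514 values of uncalled members under other settings, 143 changed sign and 17 were called. No paired analysis was possible because the labels give no replicate numbers shared between groups. The level filter left out Dnmt3b, which has no value there. Shifts under about 0.1 lie within most intervals of the lead effects, so their absence was not shown.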
